A study of Mus musculus with 2 samples.

Results

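The replication-independent histone variants were read here through 8 genes: H3f3a and H3f3b, which both encode the H3 variant H3.3, H2afz and H2afv, which encode the H2A.Z proteins H2A.Z.1 and H2A.Z.2, H2afx for H2A.X, H2afy for macroH2A1, H2afj for H2A.J and H1f0 for the linker histone H1.0. They were chosen by name and by what their proteins are, though with earlier results of these data known, and are 8 of the 55536 genes in the tables. All 8 were detected, which here means that each library held at least 10 expected counts. The cells were macrophages derived from bone marrow of the strain C57BL/6J, a primary cell type, with no genetic change in the labels. They had Lipid A, which is the portion of lipopolysaccharide sensed by TLR4, at 100 ng/ml for 12 h, were kept without it for 12 h and had it again at 100 ng/ml for 40 min. Total RNA of the nuclear fraction, called nucleoplasmic in the description, was depleted of ribosomal RNA and sequenced. Both libraries belong to this 1 group, so no untreated cells, no whole-cell RNA and no contrast stood beside it, and the values are levels and the spread between the 2 libraries. The labels number them as biological replicates but give the same donor entry for both, and sex and age were not collected. The RNA input was 1 µg for library 1 but 500 ng for library 2, which cannot be told apart from the replicate number.

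Most core histone mRNA of a dividing cell comes from clustered genes that are active in S phase and whose mRNAs end in a stem-loop instead of a poly(A) tail. The variant genes lie outside those clusters, and most of them make polyadenylated mRNAs and stay active in cells that do not divide. Their proteins can thus replace the S-phase histones where nucleosomes turn over. Many of the mRNAs are spliced, but those of H1f0 and H2afx have a single exon. H3.3 is placed at active genes and enhancers by the HIRA complex and at repeats by ATRX and DAXX, and H2A.Z is exchanged into promoter nucleosomes by the SRCAP and p400 complexes. In macrophages the chromatin of inflammatory genes opens and closes repeatedly, and such nucleosome turnover can occur outside S phase.

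The 2 genes of H3.3 differ in their mRNA and not in their protein. The first 60 coding bases of each are shown because such differences are what lets reads be assigned to either gene, with capitals marking the bases that differ within the pair (H3f3a on chr1:180811867-180811926 and H3f3b on chr11:116023950-116024009, mm10, both minus strand).
H3f3a: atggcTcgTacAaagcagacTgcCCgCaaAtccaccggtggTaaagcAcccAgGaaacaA
H3f3b: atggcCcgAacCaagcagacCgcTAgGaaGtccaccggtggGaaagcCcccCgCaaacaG
Over the whole coding sequence of 408 bases the genes differed at 95 bases (76.7% identity), in 83 of 136 codons. None of these, 0 codons, changed the residue, and the longest identical run was 23 bases.

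The 2 genes of H2A.Z are shown in the same way; their first coding exon holds only the start codon (H2afz at chr3:137864694-137864696 and chr3:137865133-137865189, plus strand, and H2afv at chr11:6444337-6444339 and chr11:6439397-6439453, minus strand).
H2afz: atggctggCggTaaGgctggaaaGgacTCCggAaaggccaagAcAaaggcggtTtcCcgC
H2afv: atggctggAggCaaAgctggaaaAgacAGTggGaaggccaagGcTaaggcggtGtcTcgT
Of 384 coding bases 80 differed (79.2% identity), in 73 of 128 codons, and 3 codons changed the residue. The longest identical run was 14 bases.

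The remaining sequences mark the alternative exons on which the isoform results turn. The first pair is the mutually exclusive exons of H2afy, printed whole in lower case. The exon of macroH2A1.2, in transcript H2afy-201, has 100 bases (chr13:56089758-56089857, minus strand), and that of macroH2A1.1, in H2afy-202, has 91 (chr13:56088252-56088342).
H2afy-201: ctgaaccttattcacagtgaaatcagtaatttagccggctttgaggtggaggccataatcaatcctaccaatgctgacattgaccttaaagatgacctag
H2afy-202: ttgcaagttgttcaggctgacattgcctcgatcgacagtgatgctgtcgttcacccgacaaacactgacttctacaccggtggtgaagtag
The second pair is the join of the last coding exon of H3f3a to the exon before it, with 30 coding bases on each side (the exons lie at chr1:180810117-180810146 and chr1:180803173-180803205 in this window, minus strand). Capitals mark the 3 bases, codon 95, that H3f3a-205 reads and H3f3a-201 skips by starting the last exon 3 bases later.
H3f3a-205: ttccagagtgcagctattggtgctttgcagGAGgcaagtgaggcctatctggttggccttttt
H3f3a-201: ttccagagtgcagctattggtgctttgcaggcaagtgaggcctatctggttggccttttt

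H3f3b dominated the variant histone RNA of this fraction. Levels are given in TPM, a share of all transcripts that divides by transcript length and so allows genes to be compared. H3f3b (chr11:116021912-116027962, minus strand) stood at 368 TPM in the first library and 234 in the second, a mean of 301 ± 94.9 (SD, n = 2), from 11220 and 8594 expected counts. It lay at percentile 99.0 of the 10991 detected protein-coding genes and made up 70.4% and 70.5% of the summed TPM of the 8 genes. H3f3a (chr1:180800832-180813943, minus strand) stood at 39.5 and 42.1 TPM, a mean of 40.8 ± 1.85 (SD, n = 2) at percentile 89.4. The 2 H3.3 genes did not overlap in level. H3f3b was 9.32-fold above H3f3a in library 1 and 5.56-fold in library 2, a ratio of 7.44 ± 2.66 (SD, n = 2), although both encode the same protein. With kallisto, the second program whose tables were deposited, the ratio was 3.45, still with H3f3b higher.

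The H3f3a level has limits that the H3f3b level lacks. The transcripts of 36 annotated pseudogenes matched at least 80% of the H3f3a coding sequence at 90% identity or more, against 2 for H3f3b. RSEM put 45.1 and 16.0 counts on the 36 together and left 28 of them at 0 in both libraries, whereas kallisto put 267 and 228 counts there. On the opposite strand Gm17275, a long non-coding gene that shares 638 exonic bases with H3f3a, held 1301 and 903 counts, more than the 786 and 792 of H3f3a itself. Whether counting used the strand is not given in the sources used here, so the H3f3a and Gm17275 values are uncertain.

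Of the H2A.Z pair, H2afz was the higher gene. H2afz (chr3:137864487-137866922, plus strand) stood at 16.7 and 11.7 TPM, a mean of 14.2 ± 3.56 (SD, n = 2), and H2afv (chr11:6427229-6444443, minus strand) at 3.03 and 2.06 TPM, a mean of 2.55 ± 0.686. H2afz was at percentile 70.0 and H2afv at percentile 27.8. The ratio was 5.51 in library 1 and 5.66 in library 2, 5.58 ± 0.104 (SD, n = 2). H2afv rests on 34 and 19 counts, with exact Poisson 95% intervals of 23.5 to 47.5 and 11.4 to 29.7 that cover counting error only. With kallisto it was 4.11 and 2.83, with H2afz again higher and the libraries further apart than for the H3.3 ratio, which kallisto put at 3.34 and 3.55.

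An exact copy of the H2afz coding sequence lies in a transcript of another expressed gene. A single-exon retained-intron transcript of Tmcc1 (chr6:116171617-116174313, minus strand), holds it in the opposite orientation, where the processed pseudogene Gm8203 is annotated, and shares a run of 669 identical bases with the 1069 bases of H2afz-201. RSEM gave this Tmcc1 transcript 77.8 and 49.3 counts. Kallisto gave it 1363 and 1169 counts, while it gave H2afz 232 and 194. H2afz was at percentile 70.0 with RSEM and 50.4 with kallisto, and the part of the shared sequence in that gap was not tested.

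Among the other H2A variants macroH2A1 was the highest by RSEM. H2afy (chr13:56073619-56136361, minus strand) stood at 70.5 and 29.9 TPM, a mean of 50.2 ± 28.7 (SD, n = 2) at percentile 91.7. Its library values enclose both of H3f3a, which was higher than H2afy in library 2 and, with kallisto, in both libraries. H2afj (chr6:136808244-136810074, plus strand), whose protein builds up in senescent cells, stood at 12.3 and 3.82 TPM, a mean of 8.05 ± 5.98 at percentile 56.0. H2afx (chr9:44334694-44336077, plus strand), whose protein is phosphorylated beside DNA breaks, stood at 1.03 and 0.91 TPM, a mean of 0.970 ± 0.0849 at percentile 12.1. The H2afx value comes from 26 and 24 counts, with Poisson 95% intervals of 17.0 to 38.1 and 15.4 to 35.7. H2afx lay below the other 7 genes in both libraries and with both programs. Its kallisto values, 0.221 and 0.595 TPM, were further apart than its RSEM values.

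H1f0 (chr15:79028450-79030504, plus strand), a single-exon gene for the linker histone typical of differentiated and resting cells, stood at 12.2 and 7.30 TPM, a mean of 9.75 ± 3.46 (SD, n = 2) at percentile 60.9. Its libraries overlapped those of both its neighbours in the order, H2afz above and H2afj below. In all, the order by mean TPM was H3f3b, H2afy, H3f3a, H2afz, H1f0, H2afj, H2afv, H2afx. Neighbouring genes whose library values did not overlap were H3f3b over H2afy, H3f3a over H2afz, H2afj over H2afv and H2afv over H2afx. The pairs H2afy with H3f3a, H2afz with H1f0 and H1f0 with H2afj did overlap and are not ordered by these data. The median of the 8 genes was 12.0 TPM, against 6.38 TPM for all detected protein-coding genes, and 6 of the 8 lay above that median. With kallisto the median of the 8 was 3.57 TPM against 3.52 TPM for all these genes, and 5 lay above it, with H2afz and H1f0 at percentiles 50.4 and 50.5 and H2afj at 43.2. In bulk RNA such a level cannot tell how many cells carry the RNA from how much each carries.

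**Figure D1:**
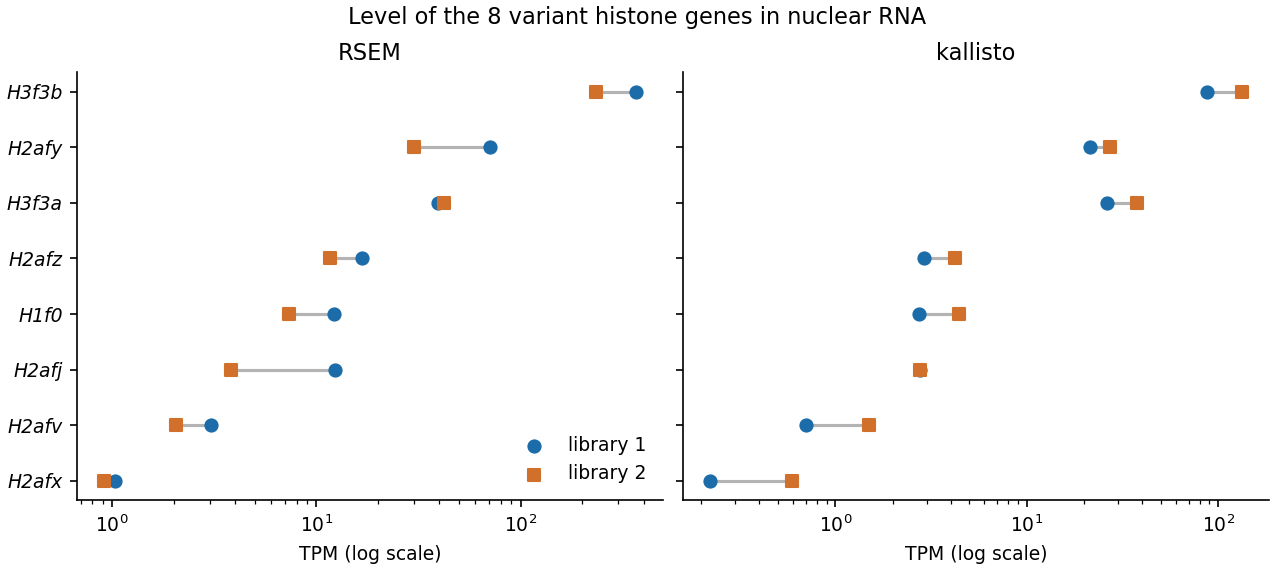
Level of each variant histone gene in TPM on a log axis, by RSEM on the left and kallisto on the right; circles are library 1, squares are library 2 and the grey line joins them. H3f3b, at 368 and 234 TPM by RSEM, stands apart from the rest with both programs, and H2afx is lowest. The 2 programs' TPM scales differ, so levels are compared within a panel.

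Of the variant genes with introns, H2afy had the largest share of its RNA in transcripts that contain intron sequence by RSEM, and the rest were near or below the typical gene. A transcript was counted as intron-bearing when at least 50 of its bases lie inside an intron of a coding transcript of the gene and in no exon of one, and shares were taken at 100 or more counts in both libraries, which left out H2afv and H2afx. Nuclear RNA holds transcripts that are still being spliced, and such reads cannot be told apart here from those of a stable retained intron. H2afy had 55.8% and 55.1% of its TPM in intron-bearing transcripts, at percentile 88.1 of the 6101 genes that have such a transcript, whose median was 25.6%. With kallisto the H2afy values were 63.4% and 69.5%, against a median of 37.3%. By RSEM the H2afy libraries differed little in this share although they differed in level. It includes H2afy-204, whose intron bases are a separate exon of 86 bases. In expected counts the intron-bearing transcripts held a smaller part, 682 of 1854 in library 1 and 329 of 863 in library 2. TPM divides by length, which gives more weight to short models such as H2afy-206, of 600 bases, beside H2afy-202, of 1933. The annotated retained-intron transcripts of H2afy alone held 35.6% and 38.1%, at percentile 72.3 against a median of 24.0%. On the intron-bearing measure H3f3a was at percentile 53.5, H3f3b at 46.8 and H2afz at 34.4.

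H3f3b differed more between the libraries in its intron-bearing share. It was 33.8% in library 1 and 14.0% in library 2, and 37.3% and 13.4% with kallisto. Most of it was H3f3b-203, a transcript with no annotated coding sequence that keeps the whole first intron (359 bases, chr11:116024020-116024378), just ahead of the start codon. H3f3b-203 took 26.5% of H3f3b TPM in library 1 and 9.43% in library 2, from 1189 and 276 counts, or 26.5% and 9.05% with kallisto. H3f3b-204 keeps the whole second intron (103 bases, chr11:116023779-116023881) and took 7.38% and 4.56%. The spliced H3f3b-201 made up 82.9% in library 2 against 58.9% in library 1. H3f3b-202, a coding transcript from an upstream start, took 7.23% and 3.07%, but 16.1% and 17.1% with kallisto. The annotation lists neither H3f3b-203 nor H3f3b-204 as a retained intron but both as processed transcripts, so a count by annotated class gives H3f3b 0 retained-intron transcripts.

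H2afz was mostly spliced. H2afz-201, its main mRNA, took 77.8% and 81.0% of TPM by RSEM, and 59.9% and 75.0% with kallisto. Kallisto put 20.4% and 25.0% on its retained-intron transcripts. By RSEM the share of these was 15.3% and 19.0%, most of it in H2afz-203, which keeps the whole last intron of 245 bases (chr3:137866141-137866385). H2afz-207, whose coding sequence of 315 bases is shorter than the 384 of H2afz-201, took 6.83% in library 1 and was listed at 0 in library 2.

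**Figure D2:**
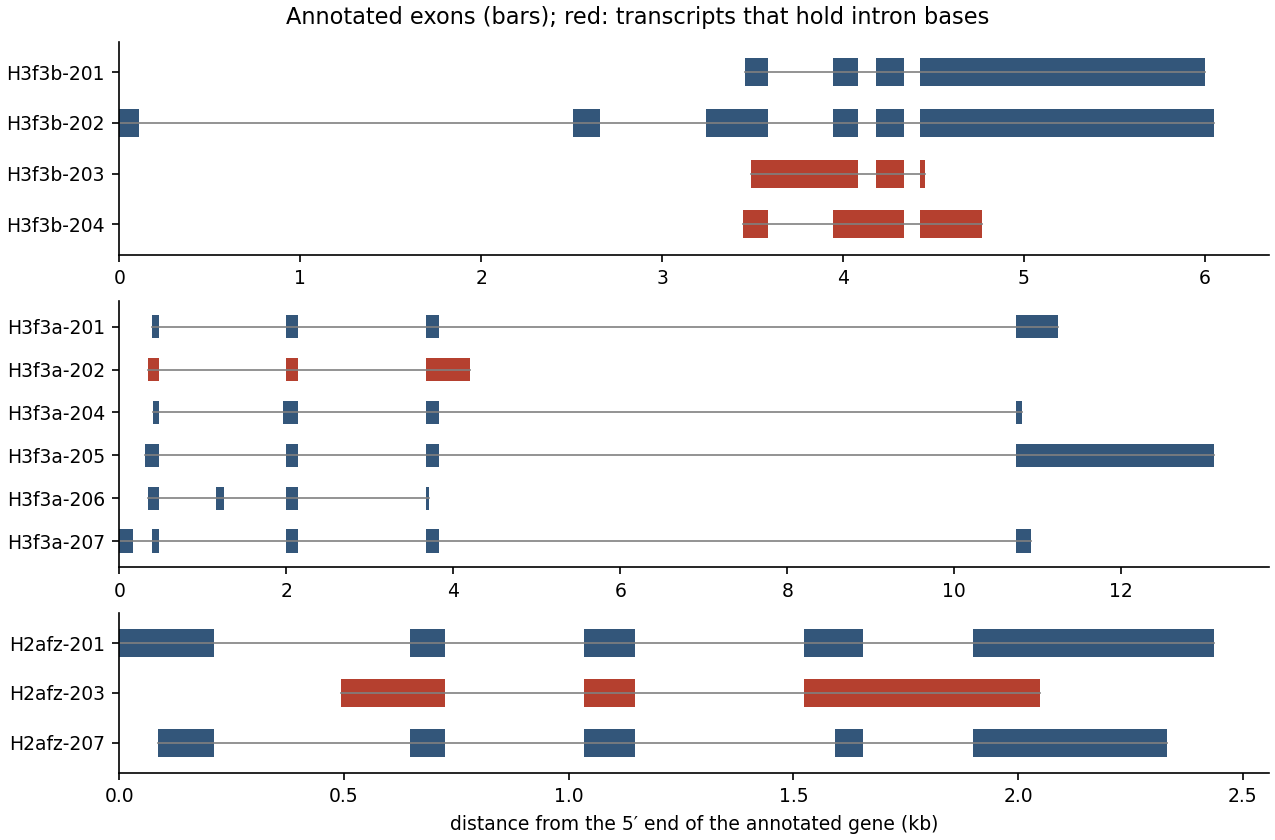
Annotated exons of the transcripts of H3f3b, H3f3a and H2afz as bars against the distance in kb from the 5′ end of the gene, with introns as thin lines. Red marks intron-bearing transcripts: H3f3b-203 fills the first intron of H3f3b-201, H3f3b-204 the second, H3f3a-202 runs on into the third intron of H3f3a and H2afz-203 fills the last intron of H2afz-201.

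The transcript make-up of H3f3a differed strongly between the libraries. H3f3a-201, the mRNA without codon 95, took 4.98% of H3f3a TPM in library 1, from 28.9 counts, and 58.4% in library 2, from 371 counts. With kallisto its share was 0.638% and 35.5%. By RSEM the retained-intron transcript H3f3a-202 went the other way at 40.7% and 14.6%, as did the full-length mRNAs H3f3a-207 at 31.4% and 14.7% and H3f3a-205 at 17.9% and 10.6%. With kallisto H3f3a-202 was at 21.9% and 16.7%, H3f3a-207 at 7.67% and 5.21%, and H3f3a-205 at 5.86% and 5.94%, so there the opposing move was small. The join is also read, with the 3 bases, by H3f3a-204. Over the TPM of all 4 transcripts that span it, the share of H3f3a-201, the only one without the 3 bases, was 8.40% in library 1 and 68.4% in library 2 by RSEM. With kallisto it was 1.73% and 50.8%. Library 2 was the higher with both programs, by RSEM above an even split and with kallisto close to it. Without H3f3a-204, a model with an incomplete coding sequence, the shares were 9.18% and 69.8% by RSEM and 4.50% and 76.1% with kallisto. The count over all 4 transcripts was added after the values were seen. These are shares of whole transcripts, and reads across the join were not counted. H3f3a-201 also has its own 3′ end, at chr1:180802697. Those of H3f3a-205, H3f3a-207 and H3f3a-204 lie at 180800832, 180803024 and 180803131. The part of that end, and of the overlap with Gm17275, in the H3f3a-201 share was not tested. The programs disagreed on other transcripts: H3f3a-206, a partial coding model, was listed at 0 by RSEM and took 41.2% and 13.5% with kallisto. H3f3a-204 took 5.04% and 1.73% with RSEM but 22.8% and 23.2% with kallisto.

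That difference was among the widest in the tables, and most variant genes did not share it. The sum of all shares that moved from 1 transcript to another was 53.4% for H3f3a, at percentile 98.2 of the 7218 genes with at least 2 transcripts, whose median was 15.6%. It was 47.5% for H2afj (percentile 96.9), 24.0% for H3f3b, 16.7% for H2afy and 9.24% for H2afz. With kallisto H3f3a moved by 35.3% (percentile 93.9) and H2afj by 21.5% (percentile 70.8), while H2afz moved by 23.4% (percentile 75.7), so the places of H2afj and H2afz in this order depended on the program. The leading transcript differed between the libraries for 1 of 5 variant genes with RSEM, H3f3a, where 19.3% of all genes did so, and for 2 of 5 with kallisto, H3f3a and H2afy, where 24.6% did. With RSEM the count is near the background.

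Of the 2 annotated macroH2A1 mRNAs, that of macroH2A1.1 was the more abundant in both libraries, but the majority in library 2 did not hold over all transcripts with the alternative exons. The macrodomain of macroH2A1.1 binds ADP-ribose and that of macroH2A1.2 does not, and the choice lies in the exon pair printed above. H2afy-202, the macroH2A1.1 mRNA of 369 codons, stood at 23.9 and 7.76 TPM. H2afy-201, the macroH2A1.2 mRNA of 372 codons, stood at 7.31 and 5.67 TPM. MacroH2A1.1 was thus 76.5% of the pair in library 1 and 57.8% in library 2, or 78.7% and 60.3% with kallisto. The retained-intron transcript H2afy-206, at 6.79 and 4.76 TPM, also holds the whole macroH2A1.2 exon. Counted with H2afy-201, a choice added after the values were seen, it brought the macroH2A1.1 share to 62.8% and 42.7% by RSEM and to 53.4% and 32.3% with kallisto. No annotated intron-bearing transcript holds the macroH2A1.1 exon, so this wider count can add to the macroH2A1.2 side only. Library 1 had the higher macroH2A1.1 share in all 4 of these comparisons. H2afy-203 at 21.7% and 16.1% of H2afy TPM, H2afy-204 at 20.0% and 17.0%, and H2afy-205 at 4.24% and 6.05% hold neither exon.

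H2afj also has 2 coding transcripts. The single-exon H2afj-201 took 52.5% of TPM in library 1 and 100% in library 2, and the shorter spliced H2afj-202, of 577 bases, took 47.5%, from 46.6 counts, and was listed at 0 in library 2. Kallisto gave H2afj-202 44.4% and 22.9%. H2afv likewise has a coding transcript that skips an exon, H2afv-201 with 90 codons in place of 128, but with 16.7 and 12.5 counts on it no share is given. H1f0 and H2afx have 1 annotated transcript each.

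**Figure D3:**
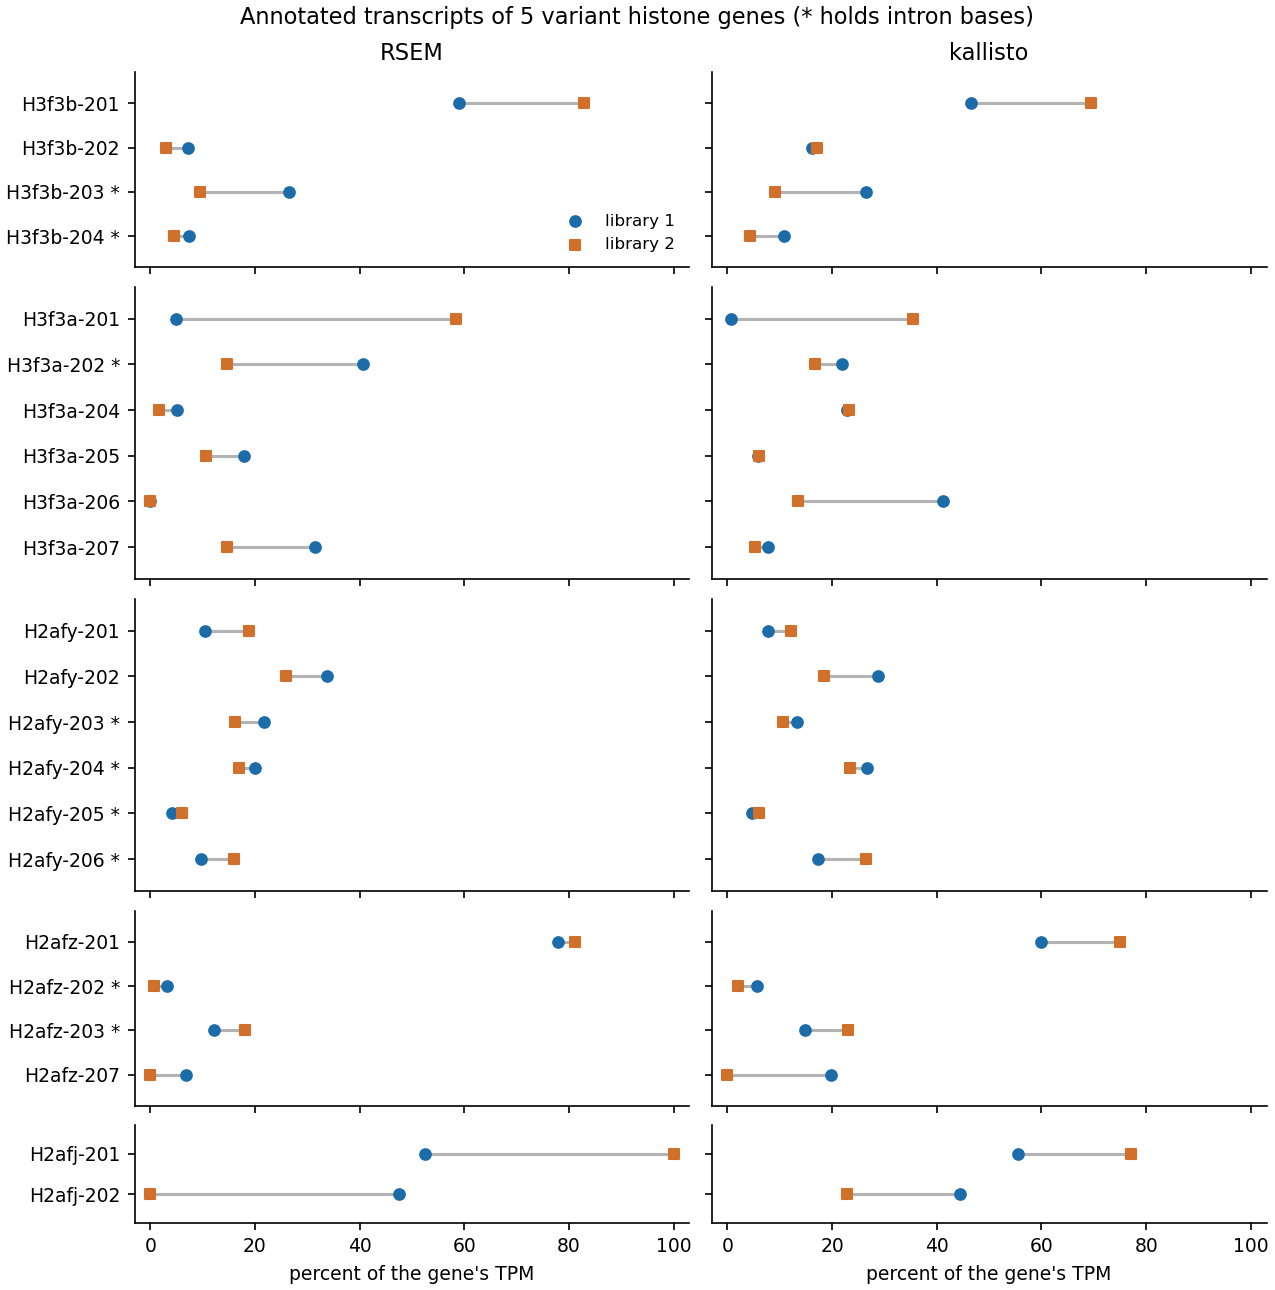
Percent of each gene's TPM in its annotated transcripts (those at 5% or more in a library with either program), by RSEM on the left and kallisto on the right; circles are library 1, squares are library 2 and asterisks mark intron-bearing transcripts. The long lines are H3f3a-201 (4.98% and 58.4% by RSEM) and, by RSEM, the H2afj pair. H2afz transcripts differ little by RSEM, but with kallisto H2afz-207 is at 19.7% in library 1 and near 0 in library 2.

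The libraries were then compared gene by gene as a measure of their spread. The log2 ratio of TPM, library 2 over library 1, was centred on its median over genes with a mean of 100 or more counts, which was -0.38, so values are relative to the typical gene. Of the 6 variant genes at that count, 1 lay past 2-fold in either direction (H2afj), where 3.78% of 8935 genes did, and that 1 was lower in library 2, as were 2.01% of genes. With kallisto 0 of 6 lay past 2-fold, against 4.53% of genes. There is 1 library on each side, so no p-value was computed.

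H2afj stood at -1.30 on this centred log2 scale, 2.47-fold lower in library 2, and at -0.89 with kallisto. In library 1 part of its counts fell on the short H2afj-202, so the mean length that TPM divided by was 1235 bases there and 1831 in library 2. In CPM, which does not divide by length, H2afj was at 13.7 and 8.08, and on edgeR's TMM scale the log2 ratio of H2afj was -0.67. The H2afy ratio was -0.86, or 1.81-fold lower in library 2, and -0.53 with kallisto. H1f0 was at -0.36, H3f3b at -0.27 and H2afz at -0.14. H3f3a was at 0.47 with RSEM and -0.36 with kallisto, so its direction depended on the program. Log2 ratios of 5 genes, H3f3b, H2afy, H2afz, H1f0 and H2afj, were below 0 with RSEM, with kallisto and under the 4 other scalings tried. Among these is the ratio without centring, where the typical gene was itself at -0.38. All settings use the same 2 libraries, and the share of all genes below 0 in all of them was not computed. H2afv and H2afx, at 34 counts or fewer, changed sign among these settings.

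**Figure D4:**
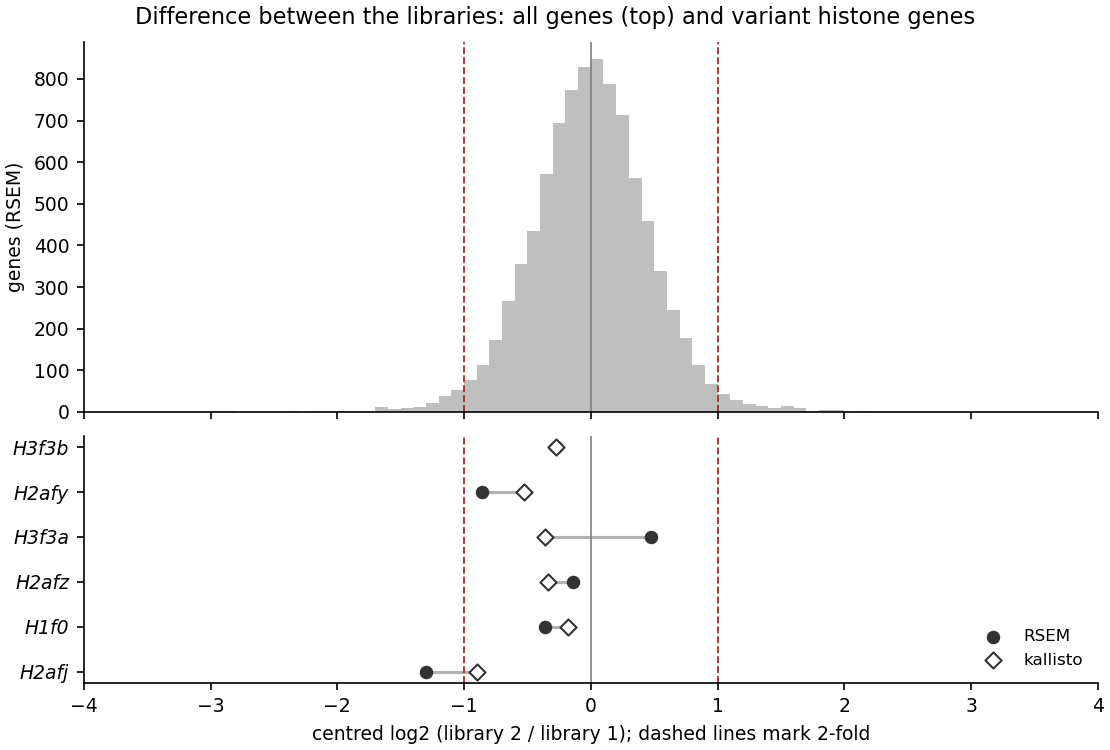
Top, number of genes by centred log2 ratio of library 2 over library 1 (RSEM); bottom, the same ratio for the 6 variant genes with enough counts, as filled circles for RSEM and open diamonds for kallisto, with dashed lines at 2-fold. H2afj passes the left line with RSEM only, at -1.30, H3f3a lies on opposite sides of 0 with the 2 programs, and the H3f3b symbols coincide.

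Variant genes outweighed the replication-dependent genes of their class for H3 and, by less and only with H2afy counted, for H2A, and not for H1. The 8 genes summed to 524 and 332 TPM, and the 67 protein-coding genes of the histone clusters to 257 and 116 TPM. The ratio was 2.04 and 2.85, 2.45 ± 0.575 (SD, n = 2), above 1 in both libraries. Of the 67, 31 encode H2B or H4, classes with no gene among the 8. Over the 36 clustered H3, H2A and H1 genes alone the sums were 109 and 47.7 TPM, and the ratio 4.81 and 6.96. The H3.3 genes held 408 and 276 TPM against 13.4 and 8.41 TPM for the 12 clustered H3 genes, of which 2 were detected, a ratio of 30.4 and 32.9. For H2A the 5 variant genes held 104 and 48.4 TPM against 75.4 and 31.6 TPM for 18 clustered genes, a ratio of 1.37 and 1.53. H2afy alone held 70.5 and 29.9 TPM of this variant sum, and without it the clustered H2A genes were higher in both libraries. Of the H2afy TPM, 55.8% and 55.1% lay in intron-bearing transcripts. For H1, H1f0 held 12.2 and 7.30 TPM against 20.2 and 7.75 TPM for 6 clustered genes, and the ratio was below 1 in both libraries, at 0.605 and 0.942. The depletion of ribosomal RNA does not select for poly(A), so stem-loop mRNAs are not lost at that step.

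The clustered genes that were highest stood well below H3f3b. Hist2h2aa2, a clustered H2A gene, was at 17.8 and 15.1 TPM, Hist3h2a at 24.8 and 8.02 TPM and the H4 gene Hist1h4m at 24.0 and 7.82 TPM. The highest clustered linker histone gene, Hist1h1c, was at 12.4 and 5.58 TPM. Of the 67 clustered genes 25 were detected, and their near-identical sequences make single values uncertain. The same holds for H2afj and H2afx, whose coding sequences match 13 and 15 protein-coding genes at 90% identity or more.

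**Figure D5:**
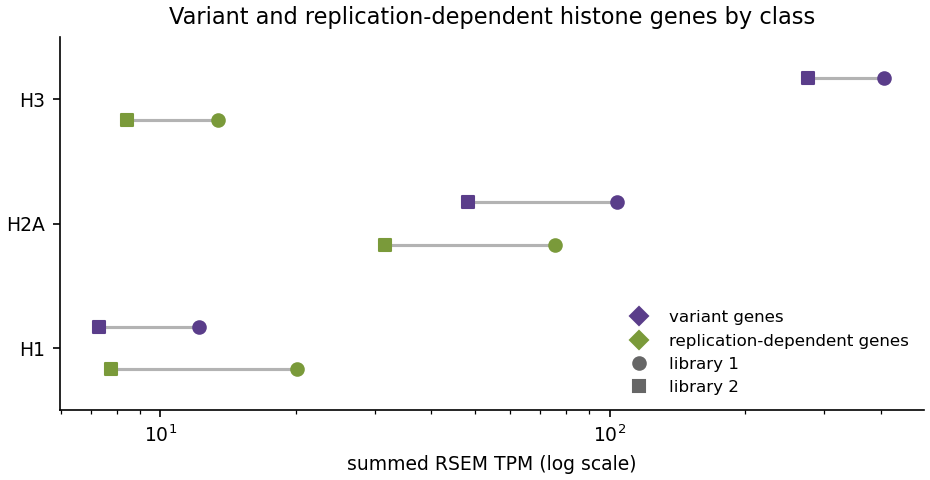
Summed RSEM TPM on a log axis of variant genes (purple) and replication-dependent genes (green) of the H3, H2A and H1 classes; circles are library 1 and squares library 2. The classes stand apart for H3 (408 and 276 against 13.4 and 8.41 TPM), and clustered H1 genes lie above H1f0 in both libraries.

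Genes of H3.3 deposition were well represented. All 8 were detected, with a median of 23.9 TPM. Daxx, the H3.3 chaperone that works with Atrx, stood at 142 ± 43.7 TPM (SD, n = 2) and Atrx at 77.7 ± 20.8 TPM. Dek, a chromatin protein that binds H3.3, was at 34.8 ± 16.7 TPM, and the lowest was Hira, the subunit that names the HIRA complex, at 6.42 ± 0.148 TPM. None, 0 of 8, lay past 2-fold between the libraries, against 3.78% of 8935 genes.

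Genes of H2A.Z exchange had a lower median, 7.62 TPM, with 16 of 16 detected. Large scaffold genes led: Trrap at 42.1 ± 16.1 TPM (SD, n = 2), Srcap, the ATPase that deposits H2A.Z, at 40.3 ± 11.8 TPM and Ep400, the ATPase of the p400 complex, at 31.9 ± 7.05 TPM. Ruvbl2, a helicase shared by these complexes, was lowest at 1.26 ± 0.226 TPM. Anp32e, the chaperone that removes H2A.Z, was the 1 gene past 2-fold of the 12 with enough counts, against 3.78% of 8935 genes. Anp32e stood at 3.74 and 8.17 TPM, higher in library 2 by 1.51 on the centred log2 scale. Its expected counts, which do not divide by length, were closer, at 200 and 251. With kallisto it stood at 1.03 and 6.63 TPM, where the typical gene had a log2 ratio of 0.88.

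The 12 genes that act with H2A.X at DNA damage were all detected, at a median of 6.13 TPM, although H2afx itself was low. Baz1b, the kinase that phosphorylates a tyrosine of H2A.X, stood at 39.3 ± 11.9 TPM (SD, n = 2), Eya3, a phosphatase for that tyrosine, at 11.8 ± 2.09 TPM and Trp53bp1 at 10.9 ± 4.45 TPM. Mre11a was lowest at 3.97 ± 1.26 TPM. General histone chaperones had a median of 12.6 TPM with 10 of 10 detected, from Npm1 at 28.1 ± 4.17 TPM, Set at 19.7 ± 0.205 TPM and Supt6 at 19.5 ± 4.37 TPM down to Ipo4 at 4.83 and 4.76 TPM. In these 2 lists 0 genes lay past 2-fold, of 12 and 10 with enough counts, against 3.78% of 8935 genes.

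Regulators of macroH2A1 splicing were abundant. Ddx5 stood at 422 ± 81.2 TPM (SD, n = 2), Mbnl1 at 222 ± 13.3 TPM and Ddx17 at 106 ± 34.7 TPM, with Mbnl2 the lowest detected at 105 ± 20.1 TPM. Mbnl3 was not detected, and 4 of the 5 measured genes were. None of the 4 lay past 2-fold between the libraries, 0 in each direction, against 3.78% of 8935 genes.

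Replication-coupled assembly and proliferation genes were lower. The first list had a median of 2.25 TPM with 9 of 10 detected, led by Slbp, which binds the stem-loop of clustered histone mRNAs, at 8.74 ± 3.18 TPM (SD, n = 2), Lsm10 at 6.59 ± 1.97 TPM and Casp8ap2 at 4.28 ± 1.46 TPM, with Lsm11 lowest at 0.255 ± 0.0919 TPM. Casp8ap2, higher in library 2, was past 2-fold by RSEM, 1 of the 5 genes of the list with enough counts, against 3.78% of 8935 genes. It stood at 3.25 and 5.31 TPM from 445 and 436 expected counts, which, unlike TPM, do not divide by length. With kallisto it stood at 1.02 and 3.29 TPM, where the typical gene had a log2 ratio of 0.88. Lsm10, below the count minimum, stood at 1.00 on the centred log2 scale. The second had a median of 1.69 TPM with 17 of 18 detected, yet Mki67 stood at 28.1 ± 4.55 TPM and Pcna at 22.3 ± 1.92 TPM, with Mcm3 next at 4.72 ± 1.29 TPM and Bub1 lowest at 0.365 ± 0.106 TPM. Of 15 other variant histone genes, among them testis variants, 2 were detected, the centromeric Cenpa at 1.66 ± 0.0495 TPM and H2afy2, the gene of macroH2A2, at 0.610 ± 0.127 TPM, and 12 were listed at 0. H1fx was among those at 0. Some genes of this list were also counted elsewhere: H3f3c among the H3f3a pseudogenes, and Hist1h1t, Hist1h2aa and Hist1h2ba among the clustered histone genes.

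Markers of the labelled cell type were present. All 8 macrophage markers were detected at a median of 147 TPM, led by Lyz2 at 1311 ± 155 TPM (SD, n = 2), while 0 of 5 T cell, 0 of 4 B cell, 0 of 5 neutrophil and 0 of 4 fibroblast markers were. The erythroid gene Alas2 was detected at 2.26 ± 0.693 TPM while Hba-a1 was listed at 0, and of 4 dendritic cell markers 2 were detected, at 0.37 TPM or less in each library. The libraries held 19797829 and 17213606 expected counts. Mitochondrial genes took 2.63% and 6.60% of them, so the fraction was not nuclear RNA alone, and library 2 carried the larger share. The part of this difference, and of RNA input, in the H3f3a, H3f3b, H2afy and H2afj differences was not tested.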

How the data were processed

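RNA of the nuclear fraction of 1 group of macrophages was measured in 2 libraries. Expected counts per gene and transcript were deposited by the authors in the RSEM layout and estimated counts per transcript in the kallisto layout, per the file headers. TPM was computed by the authors over all features. The mm10 assembly and GENCODE M21 come from the notes beside the files. For the aligner, the program versions and the strand of counting, nothing was given in the sources used here. Depth was 19797829 and 17213606 counts, and 3 counts equal 0.152 and 0.174 CPM. Features that name no gene took 0.653% and 0.222% of counts and were left out.

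Values were computed with Python 3.11.15 and pandas 2.3.3, near copies with blastn 2.17.0 (90% identity, 80% of the coding sequence) and TMM factors with edgeR 4.0.16 (R 4.3.3) after rounding the expected counts. Kallisto gene TPM is the sum over transcripts. Sequences are from the GENCODE M21 transcripts. Members and lists were chosen with earlier results of these data known. Named genes are all members, the 3 highest and the lowest detected of each list, and transcripts at 5% or more of TPM; the clustered histone genes, Anp32e, H3f3a-206, Mbnl3, H1fx and the erythroid markers were named after their values were seen. List genes absent by symbol, 2 in all, are not reported, nor is 1 marker gene. Alternatives tried were kallisto, counts, posterior mean TPM, other filters, centring, a pseudocount of 1, TMM and each library alone.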

Additional observations from a re-analysis of the deposited data

How the results depend on the processing

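The ratio of H3f3b to H3f3a, 7.44 from RSEM TPM, was 3.45 with kallisto and 12.6 with expected counts, and 5.56 to 9.32 in single libraries. The ratio of H2afz to H2afv, 5.58, was 3.47 with kallisto, 9.92 with expected counts and 5.99 with posterior mean TPM, and 5.51 to 5.66 in single libraries. Variant over replication-dependent TPM, 2.45, was 5.14 with expected counts, which do not divide by length, and 2.04 to 2.85 in single libraries. All these ratios stayed above 1. The number of variant genes past 2-fold, 1 as reported, was 0 with kallisto, 2 without centring (H2afj and H2afy) and 0 with TMM CPM. Of all genes 3.78% were past 2-fold as reported and 4.53% with kallisto. Without centring, where the typical gene was at -0.38, and with TMM CPM the share of all genes was not computed. The counts in those 2 settings therefore have no background beside them. Kallisto moved 6 of 8 levels and 2 of 3 retained-intron shares by more than the SD of the libraries. The level count includes the difference in TPM scale, since the median detected protein-coding gene was at 6.38 TPM by RSEM and 3.52 with kallisto. A detection minimum of 50 counts lowered all 8 percentiles, 5 of them by more than that SD. Such a minimum takes low-count genes out of the reference, so lower percentiles follow from the filter. H2afv and H2afx do not pass it themselves. Counting every transcript with the alternative exon or join, chosen after seeing the data, took the macroH2A1.1 share in library 2 from 57.8% to 42.7%. For macroH2A1 that count added a transcript to the macroH2A1.2 side only. No paired analysis was possible because there is only 1 group. Depth limits H2afv and H2afx, at 34 counts or fewer.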
